A study of Mus musculus with 9 samples.

Results

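Semaphorins, plexins and neuropilins were described in 3 regions of the mouse spinal cord. The genes were taken by name, as every gene whose symbol begins with Sema3 to Sema7 or Plxn, together with Nrp1 and Nrp2, that had a probe set carrying that symbol alone. This gave 32 of the 18193 genes so represented, each read from the probe set with the highest mean over the arrays, and 30 of them passed the filter on low values among 13959 genes tested. Of the 2 that did not pass, Sema6c, a transmembrane semaphorin with 3 probe sets, and Plxna4os1, an antisense transcript with 1 probe set, did not rise above the lowest deposited value on any of the 9 arrays. Every mouse was taken at postnatal day 6 and carried the GAD65-GFP genotype, a reporter that labels inhibitory neurons with green fluorescent protein through GAD65, an enzyme that makes the transmitter GABA. The 9 arrays were 3 dorsal, 3 intermediate and 3 ventral pieces of cord from 3 animals, each animal giving all 3 regions. No animal without the reporter and no other age was among the samples. No label mentions sorting of fluorescent cells, so each value is read as that of a whole piece of tissue, in which fewer cells of a type and less RNA per cell cannot be told apart.

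Semaphorins are guidance proteins that turn the growth cones of axons away from or toward a territory. Class 3 semaphorins are secreted, classes 4 to 6 span the membrane, and Sema7a is held at the cell surface by a lipid anchor. Plexins are their receptors and signal through small GTPases, while neuropilins bind most class 3 semaphorins and pass the signal on through class A plexins. In the spinal cord these molecules are known for sorting sensory axons as they enter the grey matter and for guiding motor and commissural axons, and several are also made by oligodendrocytes and blood vessels.

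Array signals are given on the log2 scale of the deposited table, on which a difference of 1 is read as 2-fold. The labels do not state the scale, centring or normalisation, so each fold rests on reading the values as log2. Array medians ran from 3.66 to 3.75, and each array had 35.97% to 36.26% of its probe sets at the floor, the lowest value of 2.15. Region labels were set against genes known to mark cell types: of 15 dorsal horn neuron markers, 14 were higher in dorsal than in ventral cord, with a mean level of 9.29 to 9.58 on the dorsal arrays and 5.25 to 5.31 on the ventral arrays. Prph, an intermediate filament of motor and sensory neurons, was at 2.15 in dorsal cord and 9.41 ± 0.24 (SD, n = 3) in ventral cord. Chat, Slc5a7 and Slc18a3, defining genes of cholinergic motor neurons, were at the floor on all 9 arrays, ventral arrays included. Differences were tested with limma on all 9 arrays with the animal as a block, the values after a difference are its standard error, and adjusted p-values are Benjamini-Hochberg values over all 13959 genes, called at 0.05. Values after a mean are the SD over 3 arrays.

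Of the 30 genes tested, 26 differed between regions by limma's F test, where 58.0% of all genes did so. The means of 16 of them were at least 1 apart between the highest and the lowest region, against 15.9% of all genes. Dorsal cord had 10 members higher than ventral cord and 14 lower, beside 24.5% of all genes higher, 28.2% lower and 52.8% called either way. At least a 2-fold difference was called for 12 of them, beside 12.9% of all genes. The genes tested include many with tied or near-floor values, which lowers the shares over all genes. Among genes with 9 distinct values above the floor, 2480 of 6712 were higher in dorsal than in ventral cord and 2835 lower, beside 9 and 11 of 21 members. Both directions were found among the semaphorins and among the plexins and neuropilins, though not within every class. Of 19 semaphorins, 4 were higher in dorsal cord, 10 were lower and 5 did not pass. Among 11 plexins and neuropilins, 6 were higher in dorsal cord, 4 were lower and 1 did not pass, and the difference between these counts was not tested. The median difference over the members was -0.07 and the median size of the difference was 0.84, beside 0.27 over all genes. Dorsal and ventral arrays did not overlap for 26 of the 30 members, beside 60.0% of all genes.

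**Figure D1:**
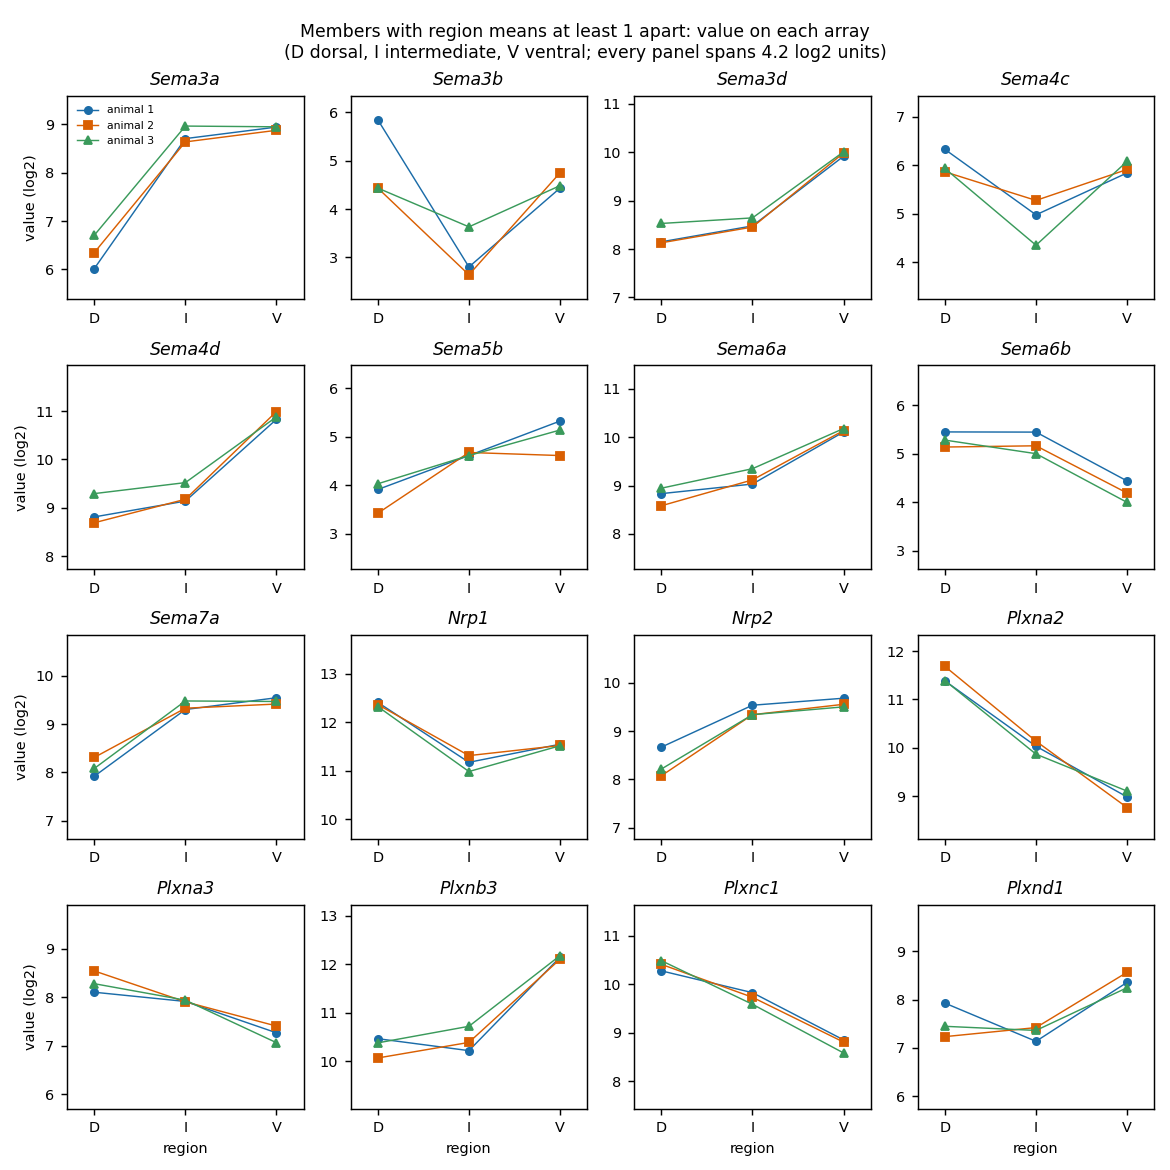
Signal (log2, vertical axis) on each array by region (horizontal axis), 1 panel for each of the 16 members whose region means differed by the F test and lay at least 1 apart, with 1 line and marker per animal and the same span in every panel. Sema3a sits between 6.02 and 6.71 on the dorsal arrays and at 8.63 or above on all others, while Plxna2 falls in steps from 11.48 in dorsal to 8.95 in ventral cord.

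Sema3a, a secreted repellent of many sensory axons that acts through Nrp1 and class A plexins, had the largest dorsal to ventral difference of all members. Its signal was 6.02, 6.35 and 6.71 on the dorsal arrays, 8.70, 8.63 and 8.96 on the intermediate arrays and 8.94, 8.87 and 8.95 on the ventral arrays. All dorsal arrays lay below all others, and intermediate and ventral arrays overlapped. Sema3a was lower in dorsal than in ventral cord by -2.56 ± 0.14, or 5.90-fold (limma, adjusted p = 0.000164). It was higher in intermediate than in dorsal cord by 2.41 ± 0.14, or 5.30-fold (limma, adjusted p = 0.000729). The difference of -0.15 ± 0.14 between intermediate and ventral cord did not pass (limma, adjusted p = 0.417). This near equality was not kept by the other Sema3a probe set above the floor, a dimmer one, whose means of 3.03, 3.71 and 4.99 from dorsal to ventral put the intermediate region nearer the dorsal level.

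Sema3d, another secreted semaphorin, was also high in ventral cord, with 9.91, 9.98 and 10.01 on the ventral arrays. The dorsal arrays read 8.15, 8.13 and 8.53 and the intermediate arrays 8.48, 8.45 and 8.64. Ventral arrays stood apart, while dorsal and intermediate arrays overlapped, so that the step lay between intermediate and ventral cord rather than between dorsal and intermediate cord as it did for Sema3a. The dorsal to ventral difference was -1.70 ± 0.08, or 3.25-fold (limma, adjusted p = 0.000108), and the intermediate to ventral difference was -1.44 ± 0.08, or 2.72-fold (limma, adjusted p = 0.000289). Sema3g, known from vascular cells, was dim, with means of 4.19, 4.59 and 4.88 from dorsal to ventral, and was lower in dorsal than in ventral cord by -0.69 ± 0.11 (limma, adjusted p = 0.00502; 0.0581 without animal 2).

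Sema3c ran the other way. This secreted ligand that can bind either neuropilin read 9.78, 10.03 and 9.89 on the dorsal arrays, 9.71, 9.71 and 9.90 on the intermediate arrays and 9.12, 9.07 and 9.00 on the ventral arrays. All ventral arrays were below all others. Sema3c was higher in dorsal than in ventral cord by 0.84 ± 0.09, or 1.79-fold (limma, adjusted p = 0.00109). Sema3e, the ligand of Plxnd1, was higher in dorsal cord by 0.28 ± 0.07 (limma, adjusted p = 0.0254; 0.129 without animal 1 and 0.186 without animal 2), with 3 identical values of 7.63 on the intermediate arrays. Sema3f, a ligand of Nrp2, lay near the floor in every region, from 2.34 to 2.39 on all 9 arrays, and did not pass in any comparison.

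Sema3b, the last of the secreted class, was lowest in the intermediate region. It read 5.84, 4.43 and 4.43 on the dorsal arrays, 2.80, 2.64 and 3.63 on the intermediate arrays and 4.43, 4.75 and 4.48 on the ventral arrays. All intermediate arrays lay below all others, and dorsal array 1 was the highest. The intermediate to dorsal difference of -1.88 ± 0.49, or 3.67-fold, passed narrowly (limma, adjusted p = 0.0450) and was lost without any single animal, at 0.172 without animal 1, 0.20 without animal 2 and 0.119 without animal 3. Without dorsal array 1 alone it was -1.32 (limma, adjusted p = 0.0673). The intermediate to ventral difference of -1.53 ± 0.49 did not pass (limma, adjusted p = 0.0558).

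Among class 4 semaphorins, Sema4d, a ligand of Plxnb1 that oligodendrocytes are known to make, had the largest difference. It read 8.81, 8.69 and 9.29 on the dorsal arrays, 9.14, 9.18 and 9.52 on the intermediate arrays and 10.83, 10.99 and 10.88 on the ventral arrays. Ventral arrays lay well above the overlapping arrays of the other regions. Sema4d was lower in dorsal than in ventral cord by -1.96 ± 0.14, or 3.90-fold (limma, adjusted p = 0.000346), and lower in intermediate than in ventral cord by -1.62 ± 0.14, or 3.07-fold (limma, adjusted p = 0.000835).

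Sema4g was the class 4 member that was higher in dorsal cord, with means of 9.52 ± 0.09 in dorsal, 9.39 ± 0.01 in intermediate and 8.56 ± 0.13 in ventral cord, and a dorsal to ventral difference of 0.96 ± 0.06, or 1.95-fold (limma, adjusted p = 0.000206). Sema4c, a ligand of class B plexins, was lowest in the intermediate region. Its values were 6.32, 5.86 and 5.93 on the dorsal arrays, 4.97, 5.27 and 4.35 on the intermediate arrays and 5.84, 5.91 and 6.08 on the ventral arrays, so that all intermediate arrays lay below all others. It was lower in intermediate than in dorsal cord by -1.18 ± 0.26, or 2.26-fold (limma, adjusted p = 0.0286), and than in ventral cord by -1.08 ± 0.26, or 2.11-fold (limma, adjusted p = 0.0235). Both calls were lost without any single animal, with adjusted p of 0.195, 0.0737 and 0.134 for the first and 0.124, 0.0596 and 0.131 for the second without animals 1, 2 and 3. The remaining class 4 genes moved little. Sema4a was lower in dorsal than in ventral cord by -0.16 ± 0.04 (limma, adjusted p = 0.0210; 0.170 without animal 2 and 0.184 without animal 3, and 0.0501 without the replicate block). Its other probe set was flat between dorsal and ventral cord and highest in the intermediate region, with means of 8.25, 8.54 and 8.26 from dorsal to ventral. Sema4f was higher in intermediate than in ventral cord by 0.41 ± 0.09 (limma, adjusted p = 0.0189; 0.0756, 0.0765 and 0.125 without animals 1, 2 and 3). Sema4b, with 3 identical values of 8.54 on the ventral arrays, did not pass the F test (limma, adjusted p = 0.0896).

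The class 5 semaphorins, which carry thrombospondin repeats outside the cell, were both lower in dorsal than in ventral cord. Sema5b was dim, at 3.91, 3.42 and 4.03 on the dorsal arrays, 4.61, 4.67 and 4.61 on the intermediate arrays and 5.32, 4.61 and 5.14 on the ventral arrays. All dorsal arrays were below all others, and ventral array 2 equalled the intermediate arrays 1 and 3. The dorsal to ventral difference was -1.24 ± 0.17, or 2.36-fold (limma, adjusted p = 0.00326). It was also higher in intermediate than in dorsal cord by 0.85 ± 0.17 (limma, adjusted p = 0.0227; 0.119, 0.0524 and 0.137 without animals 1, 2 and 3). Sema5a had means of 10.57, 10.54 and 10.77 from dorsal to ventral and was lower in dorsal than in ventral cord by -0.20 ± 0.05 (limma, adjusted p = 0.0228; 0.187 without animal 1 and 0.147 without animal 2).

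Class 6 semaphorins can act as ligands and as receptors, and the 3 that were measured above the floor did not share a direction. Sema6a, a ligand of Plxna2 and Plxna4, read 8.83, 8.58 and 8.95 on the dorsal arrays, 9.03, 9.12 and 9.35 on the intermediate arrays and 10.10, 10.13 and 10.18 on the ventral arrays. The regions did not overlap, and the larger step lay between intermediate and ventral cord. Its dorsal to ventral difference was -1.35 ± 0.08, or 2.55-fold (limma, adjusted p = 0.000255). Sema6b ran the other way, at 5.45, 5.14 and 5.28 on the dorsal arrays, 5.45, 5.17 and 5.002 on the intermediate arrays and 4.44, 4.19 and 3.997 on the ventral arrays. Ventral arrays lay below all others, and dorsal and intermediate arrays overlapped. The dorsal to ventral difference of Sema6b was 1.08 ± 0.08, or 2.12-fold (limma, adjusted p = 0.000350). Sema6d, a ligand of Plxna1, was bright in all regions, with means of 12.43, 12.40 and 12.91, and was lower in dorsal than in ventral cord by -0.48 ± 0.05, or 1.39-fold (limma, adjusted p = 0.00101). Read from its most variable probe set, a dim one with means of 3.02, 2.99 and 3.39, Sema6d did not pass, at -0.36 (limma, adjusted p = 0.159).

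Sema7a, which binds Plxnc1 and integrins, had the shape of the brightest Sema3a probe set. Its values were 7.92, 8.31 and 8.08 on the dorsal arrays, 9.30, 9.33 and 9.48 on the intermediate arrays and 9.54, 9.41 and 9.47 on the ventral arrays. All dorsal arrays lay below all others, and intermediate and ventral arrays overlapped. Sema7a was lower in dorsal than in ventral cord by -1.37 ± 0.11, or 2.58-fold (limma, adjusted p = 0.000523), and higher in intermediate than in dorsal cord by 1.26 ± 0.11, or 2.40-fold (limma, adjusted p = 0.00203; 0.0617 without animal 3).

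The neuropilins ran in opposite directions. Nrp1, the main receptor for Sema3a and a co-receptor for vascular endothelial growth factor, read 12.41, 12.36 and 12.32 on the dorsal arrays, 11.17, 11.31 and 10.98 on the intermediate arrays and 11.55, 11.52 and 11.52 on the ventral arrays. No region overlapped another, with dorsal cord highest and intermediate cord lowest. Nrp1 was higher in dorsal than in ventral cord by 0.84 ± 0.07, or 1.79-fold (limma, adjusted p = 0.000526), and lower in intermediate than in dorsal cord by -1.21 ± 0.07, or 2.31-fold (limma, adjusted p = 0.000712). It was also lower in intermediate than in ventral cord by -0.37 ± 0.07, or 1.29-fold (limma, adjusted p = 0.00934), a call lost without animal 1 (0.112) or animal 3 (0.0691). That last difference turned to 0.21 (limma, adjusted p = 0.305) when Nrp1 was read from its most variable probe set in place of its brightest.

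Nrp2, the receptor for Sema3f and Sema3c, was lowest in dorsal cord. It read 8.67, 8.08 and 8.22 on the dorsal arrays, 9.53, 9.34 and 9.34 on the intermediate arrays and 9.68, 9.55 and 9.50 on the ventral arrays. Dorsal arrays lay below all others, and the other regions overlapped. Nrp2 was lower in dorsal than in ventral cord by -1.26 ± 0.10, or 2.39-fold (limma, adjusted p = 0.000440), and higher in intermediate than in dorsal cord by 1.08 ± 0.10, or 2.12-fold (limma, adjusted p = 0.00207; 0.0672 without animal 3).

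Class A plexins, the signalling partners of neuropilins, were higher in dorsal cord where they were called: 3 of 4 were higher than in ventral cord, and the other, Plxna4, did not pass at 0.41 ± 0.18 (limma, adjusted p = 0.125). Plxna2, which also binds Sema6a directly, had the largest difference of all plexins. It read 11.38, 11.68 and 11.39 on the dorsal arrays, 10.03, 10.14 and 9.87 on the intermediate arrays and 8.99, 8.77 and 9.11 on the ventral arrays. The regions did not overlap and descended from dorsal to ventral. Plxna2 was higher in dorsal than in ventral cord by 2.53 ± 0.14, or 5.77-fold (limma, adjusted p = 0.000195). It was lower in intermediate than in dorsal cord by -1.47 ± 0.14, or 2.77-fold (limma, adjusted p = 0.00268; 0.0573 without animal 1), and higher than in ventral cord by 1.06 ± 0.14, or 2.08-fold (limma, adjusted p = 0.00344; 0.0598 without animal 1).

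Plxna3, a partner of Nrp2 in Sema3f signalling, read 8.11, 8.55 and 8.28 on the dorsal arrays, 7.92, 7.91 and 7.94 on the intermediate arrays and 7.27, 7.41 and 7.06 on the ventral arrays. It too descended without overlap, and was higher in dorsal than in ventral cord by 1.06 ± 0.11, or 2.09-fold (limma, adjusted p = 0.00115). The intermediate to dorsal difference of -0.39 ± 0.11 did not pass (limma, adjusted p = 0.0574), while Plxna3 was higher in intermediate than in ventral cord by 0.68 ± 0.11, or 1.60-fold (limma, adjusted p = 0.00639; 0.0844 without animal 3). Plxna1 was instead highest in the intermediate region, at 9.22, 9.26 and 9.29, against 8.76, 8.97 and 8.77 on the dorsal arrays and 8.52, 8.46 and 8.40 on the ventral arrays. Intermediate arrays lay above all dorsal arrays, which lay above all ventral arrays. Plxna1 was higher in intermediate than in ventral cord by 0.79 ± 0.06, or 1.73-fold (limma, adjusted p = 0.000687), and than in dorsal cord by 0.42 ± 0.06 (limma, adjusted p = 0.00885; 0.0739 without animal 1 and 0.117 without animal 3). It was higher in dorsal than in ventral cord by 0.37 ± 0.06 (limma, adjusted p = 0.00619; 0.0651 without animal 3). Plxna4, with 3 identical values of 7.96 on the intermediate arrays and a ventral mean of 7.62 ± 0.38, did not pass the F test (limma, adjusted p = 0.206).

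Class B plexins, the receptors of class 4 semaphorins, were mostly higher in ventral cord. Plxnb3, known from the oligodendrocyte lineage, read 10.46, 10.06 and 10.38 on the dorsal arrays, 10.21, 10.38 and 10.72 on the intermediate arrays and 12.14, 12.10 and 12.18 on the ventral arrays. Ventral arrays stood far above the overlapping arrays of the other regions. Plxnb3 was lower in dorsal than in ventral cord by -1.84 ± 0.14, or 3.58-fold (limma, adjusted p = 0.000415), and lower in intermediate than in ventral cord by -1.70 ± 0.14, or 3.25-fold (limma, adjusted p = 0.000729). Plxnb1, the receptor of Sema4d, had means of 8.002 ± 0.18, 8.07 ± 0.14 and 8.82 ± 0.08 from dorsal to ventral. Its dorsal to ventral difference was -0.82 ± 0.07, or 1.77-fold (limma, adjusted p = 0.000540). Plxnb2 was higher in dorsal than in ventral cord by 0.40 ± 0.12 (limma, adjusted p = 0.0389; 0.184 without animal 1 and 0.175 without animal 3).

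Plxnc1, the receptor of Sema7a, was highest in dorsal cord. It read 10.28, 10.41 and 10.49 on the dorsal arrays, 9.83, 9.73 and 9.59 on the intermediate arrays and 8.85, 8.81 and 8.58 on the ventral arrays. The regions descended from dorsal to ventral without overlap. Plxnc1 was higher in dorsal than in ventral cord by 1.64 ± 0.10, or 3.13-fold (limma, adjusted p = 0.000253), and higher in intermediate than in ventral cord by 0.97 ± 0.10, or 1.96-fold (limma, adjusted p = 0.00158). Plxnd1, the receptor of Sema3e and a gene of blood vessels, was highest in ventral cord, at 8.35, 8.56 and 8.24, against 7.93, 7.23 and 7.45 on the dorsal arrays and 7.14, 7.42 and 7.36 on the intermediate arrays. Ventral arrays were above all others, and the other regions overlapped. It was lower in dorsal than in ventral cord by -0.85 ± 0.21, or 1.80-fold (limma, adjusted p = 0.0248; 0.141 without animal 2 and 0.162 without animal 3), and lower in intermediate than in ventral cord by -1.08 ± 0.21, or 2.11-fold (limma, adjusted p = 0.0123; 0.0567 without animal 2 and 0.107 without animal 3).

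**Figure D2:**
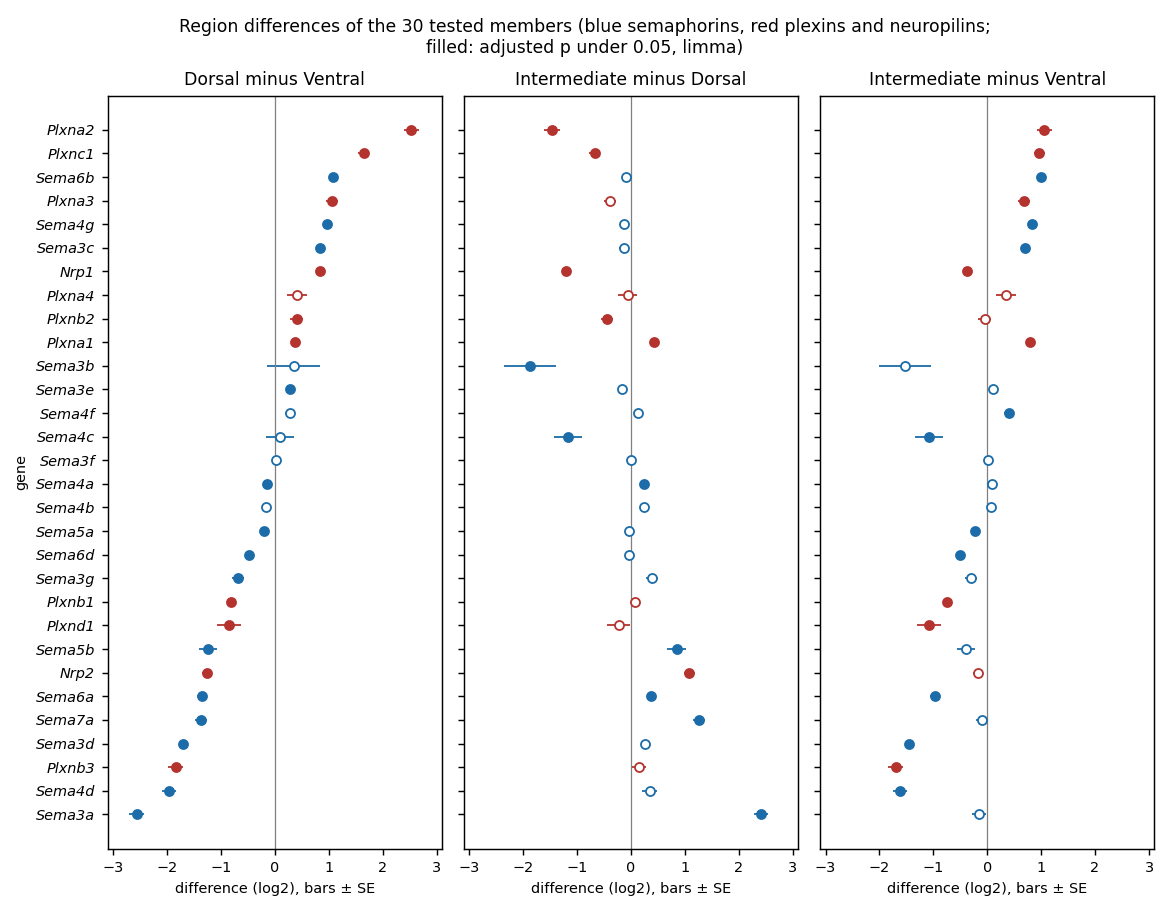
Differences between regions (log2, horizontal axis, bars of 1 standard error either way) for all 30 members tested, ordered by the dorsal to ventral difference, semaphorins in blue, plexins and neuropilins in red, and filled points for calls at an adjusted p under 0.05. The dorsal to ventral difference runs from -2.56 for Sema3a to 2.53 for Plxna2.

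The sequence upstream of the start is shown for 4 members, so that genes high at opposite ends of the cord can be read side by side. Each had a dorsal to ventral call of at least 0.75, a single annotated start and 200 bases outside the annotated span of the gene. Not every chromosome was used for this display, so other members that met these conditions may be missing from it. Sequences are from RefSeq on GRCm38.p6, in which 26 of the 32 members matched a window, and cover bases 250 to 51 before the start. Capitals mark E boxes (CANNTG, the same on both strands) and GC boxes (GGGCGG, or CCGCCC on the other strand), and no match of one motif overlapped a match of another. Nrp2 lies at chr1:62703067-62703266 and Plxna2 at chr1:194619579-194619778, both on the plus strand. The windows of Sema3c, at chr5:17574566-17574765, and Sema3d, at chr5:12382916-12383115, are also on the plus strand.
Plxna2: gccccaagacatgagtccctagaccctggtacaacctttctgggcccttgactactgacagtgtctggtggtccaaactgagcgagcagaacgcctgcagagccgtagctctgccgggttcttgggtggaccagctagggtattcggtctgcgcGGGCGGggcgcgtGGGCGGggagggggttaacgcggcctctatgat
Sema3c: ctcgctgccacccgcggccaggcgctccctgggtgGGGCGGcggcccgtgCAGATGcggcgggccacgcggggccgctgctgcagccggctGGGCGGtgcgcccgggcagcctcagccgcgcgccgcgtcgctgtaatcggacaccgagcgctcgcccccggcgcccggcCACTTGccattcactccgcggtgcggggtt
Nrp2: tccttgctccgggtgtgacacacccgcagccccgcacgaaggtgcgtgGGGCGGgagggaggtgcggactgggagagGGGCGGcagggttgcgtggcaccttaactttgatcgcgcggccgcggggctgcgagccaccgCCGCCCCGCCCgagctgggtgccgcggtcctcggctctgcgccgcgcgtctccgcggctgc
Sema3d: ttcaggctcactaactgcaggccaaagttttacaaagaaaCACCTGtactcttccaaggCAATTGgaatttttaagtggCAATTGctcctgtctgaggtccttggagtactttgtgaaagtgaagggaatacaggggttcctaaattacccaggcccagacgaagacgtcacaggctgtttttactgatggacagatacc
The window of Sema3d, high in ventral cord, had a GC content of 45.0% with 2 CpG pairs, 3 E boxes and no GC box. Those of Plxna2, Sema3c and Nrp2 had a GC content of 62.5%, 79.5% and 75.5%, beside a median of 51.5% over all 32851 windows. Plxna2 and Sema3c, higher in dorsal cord, held 2 GC boxes each, and Nrp2, lower in dorsal cord, held 4. An E box was present in 59.0% and a GC box in 24.6% of all windows, and these matches describe the letters only. The SOX motif ACAAAG, or CTTTGT on the other strand, was found 2 times in the Sema3d window and in none of the other windows shown, and in 13.6% of all windows.

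In the intermediate region 7 members were higher than in dorsal cord and 6 were lower, beside 15.9% and 14.2% of all genes, or 30.1% either way. With arrays centred on their medians the balance shifted for members and for all genes, to 10 members higher and 5 lower beside 23.1% and 11.0% of all genes. At least a 2-fold difference was called for 7, beside 3.85% of all genes. Against ventral cord, 8 members were higher and 10 lower in intermediate cord, beside 23.4% and 24.9% of all genes, or 48.2% either way, and 6 differed by at least 2-fold, beside 9.51%. Arrays did not overlap between intermediate and dorsal cord for 16 members, beside 42.3% of all genes, and between intermediate and ventral cord for 20, beside 57.7%. Leaving out an animal leaves fewer arrays, and the calls of intermediate against dorsal cord then fell over all genes. From 2219 genes higher and 1983 lower, they fell to 981 and 922 without animal 1. They numbered 1449 and 1005 without animal 2, and 765 and 699 without animal 3. Of the 13 member calls against dorsal cord, 11 were lost with 1 animal left out, and those of Sema3a and Nrp1 were kept with each animal left out. Sema6a was among those lost, with a difference of 0.38 ± 0.08 (limma, adjusted p = 0.0297; 0.0966, 0.127 and 0.177 without animals 1, 2 and 3). Plxnc1 was another, lower in intermediate than in dorsal cord by -0.68 ± 0.10 (limma, adjusted p = 0.00942; 0.109 without animal 2 and 0.0592 without animal 3). So was Plxnb2, at -0.45 ± 0.12 (limma, adjusted p = 0.0453; 0.199, 0.0627 and 0.153 without animals 1, 2 and 3), and Sema4a, higher by 0.24 ± 0.04 (limma, adjusted p = 0.0104; 0.101 without animal 2 and 0.124 without animal 3). Of the 24 dorsal to ventral calls, 17 were kept with each animal left out, as were 11 of the 18 between intermediate and ventral cord; Sema5a, lower in intermediate than in ventral cord by -0.23 ± 0.05 (limma, adjusted p = 0.0139), lost that call without animal 1 (0.138) or animal 2 (0.0704).

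The intermediate level did not lie midway for every gene. As a description chosen after the values were seen, Sema3a had covered 94.0% of the distance from its dorsal to its ventral mean in the intermediate region, Sema7a 92.2% and Nrp2 86.2%. Plxna2 had covered 58.1%, Plxnc1 41.1% and Plxna3 36.6%. Sema6a had covered 28.0%, Sema4d 17.6%, Sema3d 15.1%, Plxnb1 8.51%, Sema6b 7.95% and Plxnb3 7.54%. On these brightest probe sets the intermediate level was near the ventral level for the first group and near the dorsal level for the last. Other probe sets differed in this: the second of Sema3a had covered 34.6%, and the other 3 of Nrp2 had covered 53.9%, 41.3% and 72.8%. Those of Plxna2 had covered 55.8%, 56.6% and 54.0%, and those of Plxnc1, Sema4d and Sema6a 61.7%, 13.3% and 12.6%. Tested against the mean of the other regions, intermediate cord had 8 members higher and 10 lower, beside 18.8% and 17.9% of all genes, or 36.7% either way. At least a 2-fold difference was called for 3 of them, beside 2.64% of all genes. Of these 18 calls, those of Sema3a and Nrp1 were kept with each animal left out, and the counts fell to 2 higher without animal 3 and to 2 lower without animal 1 or animal 2. Over all genes the counts fell too, from 2625 higher to 715 without animal 3 and from 2502 lower to 976 without animal 1. Sema3a differed by 1.13 ± 0.12 (limma, adjusted p = 0.00315) on its brightest probe set, and its other probe set had the opposite sign, at -0.30. Plxna1 differed by 0.61 ± 0.05 (limma, adjusted p = 0.00220; 0.0554 without animal 3). Downward, Sema3b at -1.70 ± 0.42 (limma, adjusted p = 0.0337; 0.116, 0.188 and 0.0999 without animals 1, 2 and 3) and Sema4c at -1.13 ± 0.22 (limma, adjusted p = 0.0181; 0.136, 0.0555 and 0.112) were followed by Nrp1 at -0.79 ± 0.06 (limma, adjusted p = 0.00157). Nrp1 and Sema4c were called lower in intermediate cord than in each of the other regions, and Plxna1 higher than in each. Some of these calls were lost without some animal, as given above: Nrp1 against ventral cord, Sema4c against both regions and Plxna1 against dorsal cord. That of Nrp1 against ventral cord also changed sign on its most variable probe set.

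Known ligand and receptor pairs were set side by side. Of 28 pairs, both genes were called between dorsal and ventral cord in 21, in opposite directions in 15 and in the same direction in 6. Over all pairs of tested genes, 13.8% were called in opposite directions and 14.0% in the same direction. These shares do not allow for members being called more often than other genes. Of 19 semaphorins 4 were higher and 10 lower, and of 11 plexins and neuropilins 6 were higher and 4 lower. Pairings of members not known to bind were not counted, so an excess for known pairs cannot be read from these counts. With an animal left out, the opposite pairs numbered 11, 13 and 9 for animals 1, 2 and 3, and those of the same direction 5, 2 and 4. The pairs share genes, so they are not independent of each other, and those with Plxna1, Plxnb2, Plxnd1, Sema3e, Sema3g, Sema4a or Sema5a rest on a call lost without some animal. Sema3a, lower in dorsal cord by -2.56, faced Nrp1, Plxna2 and Plxna3, higher by 0.84, 2.53 and 1.06. Sema6a at -1.35 faced Plxna2 at 2.53, and Sema7a at -1.37 faced Plxnc1 at 1.64. Sema3c and Nrp2 were opposed the other way round, with the ligand higher in dorsal cord by 0.84 and the receptor lower by -1.26. Sema3e at 0.28 and Plxnd1 at -0.85 were opposed in that way too. The class 4 ligand Sema4d and its receptor Plxnb1 were both lower in dorsal cord, by -1.96 and -0.82, as were Sema3g and Nrp2, by -0.69 and -1.26. Sema3c and Plxna3 were both higher in dorsal cord, by 0.84 and 1.06.

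**Figure D3:**
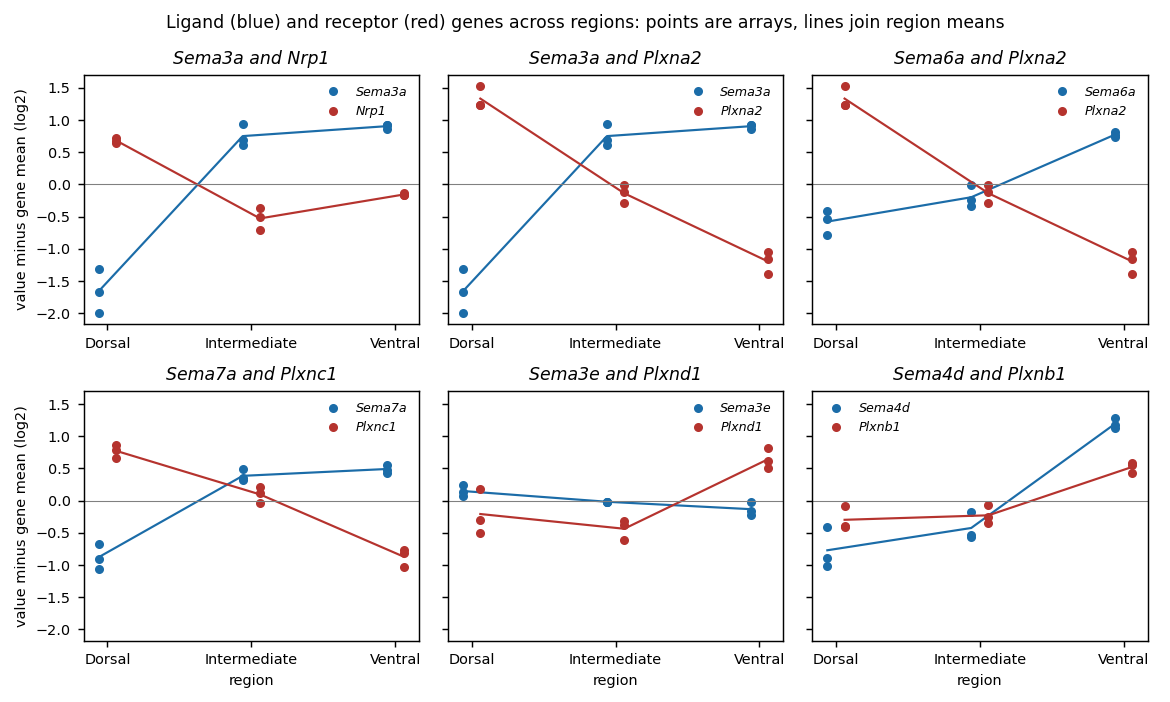
Signal on each array minus the gene's mean over the 9 arrays (log2, vertical axis) by region for 6 of the pairs, ligand in blue and receptor in red, with lines through the region means. Lines of Sema3a, Sema6a and Sema7a cross those of their receptors Nrp1, Plxna2 and Plxnc1, as Sema3e crosses Plxnd1, while Sema4d and Plxnb1 are both highest in ventral cord.

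Several marker lists also differed between regions. The oligodendrocyte lineage list had 13 of 14 genes lower in dorsal than in ventral cord, and its mean level was 10.47 to 10.74 on the dorsal, 10.66 to 11.00 on the intermediate and 11.86 to 11.93 on the ventral arrays. Plxnb3, Sema4d, Sema6a and Sema3d had that same order, with a small step from dorsal to intermediate and a large one to ventral cord, and the part of oligodendrocyte content in their differences was not tested. Astrocyte markers were lower in dorsal than in ventral cord for 11 of 11 genes. Their mean level was 11.79 to 12.07, 12.10 to 12.19 and 12.83 to 12.88 on dorsal, intermediate and ventral arrays. That order was also the order of Plxnb3, Sema4d, Sema6a and Sema3d, and the part of astrocytes was not tested. Endothelial and mural markers were lower for 11 of 13 genes, at 7.09 to 7.29, 7.43 to 7.48 and 8.21 to 8.31 on dorsal, intermediate and ventral arrays. Plxnd1 and Sema3g, known from vessels, were also lower in dorsal than in ventral cord. Only Sema3g had the order of the list over all regions, as the means of Plxnd1 were 7.54, 7.31 and 8.39 from dorsal to ventral. Nrp1, the co-receptor for vascular endothelial growth factor, ran the other way, higher in dorsal than in ventral cord by 0.84. The part of vessel content was not tested. Dorsal horn neuron markers, at 6.60 to 7.17 on the intermediate arrays, descended between the dorsal and ventral levels given above, as did Plxna2, Plxnc1 and Plxna3, and their part was not tested either. The mean of the inhibitory neuron markers was highest in intermediate cord, at 8.83 to 8.91 against 8.52 to 8.65 on the dorsal and 7.59 to 7.70 on the ventral arrays. Of the 6 genes tested, 4 were higher and 2 lower than in dorsal cord, and 5 were higher than in ventral cord. The 2 lower ones were Gad1, at 14.00 in dorsal and 12.93 in intermediate cord, and Lhx1, at 9.99 and 8.71. Ptf1a of that list was at the floor on all arrays. Plxna1 had the same order as the list's mean, unlike Gad1 and Lhx1, and the part of inhibitory neurons was not tested. Cycling cell markers were lower in dorsal than in ventral cord for 6 of 6 genes, at 7.81 to 8.13, 7.96 to 8.03 and 8.88 to 9.11 on dorsal, intermediate and ventral arrays, an order like that of the oligodendrocyte list, and their part was not tested. Motor neuron markers stood at 3.25 to 3.36, 3.99 to 4.13 and 5.05 to 5.37, with 3 of the 5 genes tested lower in dorsal than in ventral cord. Chat, Slc5a7 and Slc18a3 of that list were at the floor on all arrays, which lowers its mean. Isl1 had means of 6.94 in intermediate and 6.92 in ventral cord, Prph 2.26 and 9.41, and Chodl 9.05 and 11.32. The part of motor neurons in the ventral members was not tested.

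Genes lowest in the intermediate region had their own company. Meningeal and fibroblast markers stood at 7.64 to 8.68 on the dorsal, 5.93 to 6.21 on the intermediate and 8.26 to 8.60 on the ventral arrays, with 9 of the 11 genes tested lower in intermediate than in dorsal cord and 10 lower than in ventral cord. Slc22a6 of that list was at the floor on all arrays. Schwann cell markers stood at 7.21 to 8.96, 5.27 to 5.48 and 8.30 to 8.61, with 3 of 6 genes lower in intermediate than in dorsal cord and 5 lower than in ventral cord. Microglial markers stood at 7.38 to 7.62, 6.89 to 7.04 and 7.59 to 7.66, with 9 of 11 lower in each comparison. Sema3b, Sema4c and Nrp1 had the same low point, and the part of these cells in it was not tested. Dorsal array 1 had the highest meningeal level of the dorsal arrays, 8.68, the highest Schwann cell level, 8.96, and the highest Sema3b and Sema4c signal. The other regions shared this only in part. Ventral array 1 was highest of the ventral arrays on both lists, at 8.60 and 8.61, and lowest for Sema3b, 4.43, and Sema4c, 5.84. Intermediate array 2 was highest of the intermediate arrays on both lists, at 6.21 and 5.48, with the lowest Sema3b, 2.64, and the highest Sema4c, 5.27. Nrp1 was highest within its region on each of these arrays. It read 12.41 on dorsal array 1, 11.31 on intermediate array 2 and 11.55 on ventral array 1, the last beside 11.52 on both other ventral arrays. Ependymal markers were higher in intermediate than in dorsal cord for 7 of 8 genes, at 3.14 to 3.45 on the dorsal and 5.62 to 5.98 on the intermediate arrays.

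**Figure D4:**
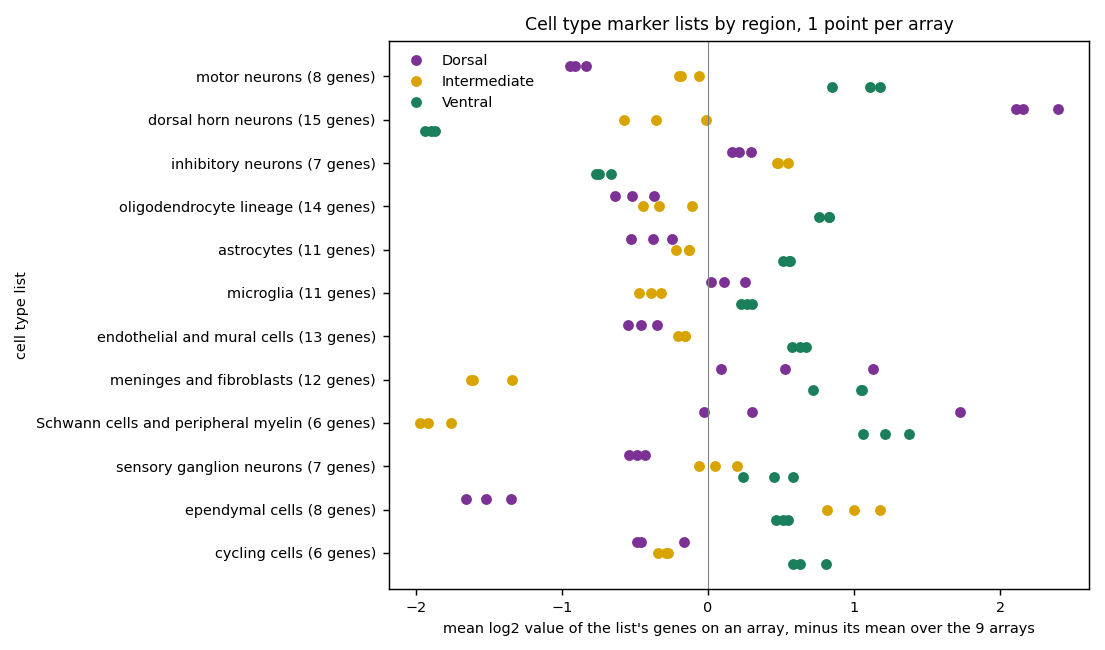
Mean signal of each cell type marker list on an array, minus the list's mean over the 9 arrays (log2, horizontal axis), 1 point per array, coloured by region. Dorsal horn neuron markers lie highest in dorsal cord, oligodendrocyte, astrocyte and vessel markers highest in ventral cord, and meningeal, Schwann cell and microglial markers lowest in intermediate cord.

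Other probe sets of the same genes were compared. The members had 79 probe sets in all, of which 47 were not the ones used, and 15 of these were at the floor on all arrays. Of the 27 above the floor on all arrays, 24 belonged to genes called between dorsal and ventral cord. Of the 24, 23 had the sign of the probe set used. Those of Plxna3 and Sema4a and 1 of Sema6a were flat between these regions, with a difference of 0.01 for Plxna3. The flat ones of Plxna3 and Sema6a were dim, with dorsal means of 2.32 and 2.65. The exception in sign was a probe set of Sema3e at 2.16 in every region, just above the floor, with no difference. Another of Sema3e, with means of 7.59, 7.19 and 6.82 from dorsal to ventral, was higher in dorsal cord by 0.77. All 3 other probe sets of Plxna2 were higher in dorsal cord, by 2.51, 2.14 and 2.79. Those of Nrp1 were higher by 1.30, 1.22 and 2.67, and the last of them gave a higher mean in intermediate than in ventral cord, 6.99 against 6.79, where the others gave a lower one. For Nrp2 the differences were -1.07, -2.45 and -0.47. The other probe sets of Plxnb3, Sema4d, Sema3a and Plxnc1 differed by -2.01, -1.43, -1.96 and 1.76. In intermediate cord the second probe set of Sema3a was nearer the dorsal than the ventral level, unlike the first.

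**Figure D5:**
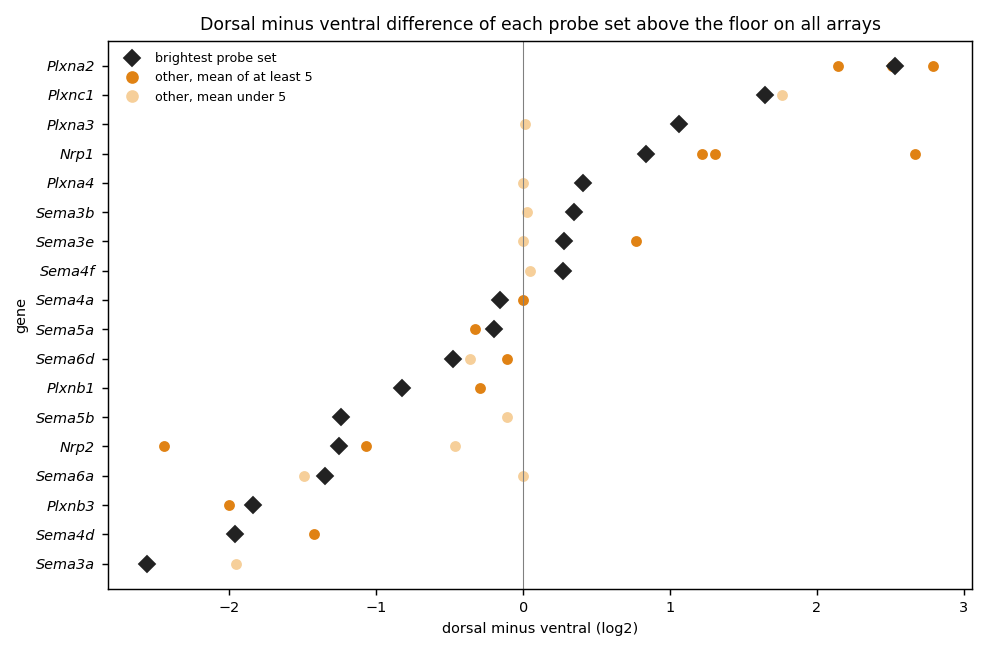
Dorsal minus ventral difference (log2, horizontal axis) of every probe set above the floor on all arrays, for the members with more than 1, with diamonds for the probe set used and circles for the others, paler where the mean is under 5. The probe sets of Plxna2 lie between 2.14 and 2.79 and those of Nrp2 between -2.45 and -0.47, while single probe sets of Plxna3, Sema4a, Sema6a and Sema3e lie at 0.

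Genes that work with semaphorins and plexins were counted from a list of 67, of which 63 could be tested. Dorsal cord had 15 of them higher than ventral cord and 24 lower, beside the 24.5% and 28.2% of all genes, with a median difference of -0.12. Of 10 collapsin response mediators and MICALs, which pass the semaphorin signal to the cytoskeleton, 6 were higher in dorsal cord and 1 was lower. Crmp1 had means of 12.57 ± 0.16, 12.13 ± 0.02 and 10.69 ± 0.10 from dorsal to ventral, a difference of 1.88 ± 0.07 (limma, adjusted p = 6.87e-05). Dpysl5 and Dpysl4, of the same family, differed by 1.70 ± 0.06 (limma, adjusted p = 5.65e-05) and 1.38 ± 0.08 (limma, adjusted p = 0.000205). Of 20 plexin-bound GTPases and regulators, 2 were higher in dorsal cord and 9 were lower. Rras and Rras2, the R-Ras proteins that plexins inactivate, were lower by -1.46 ± 0.16 (limma, adjusted p = 0.00133) and -1.49 ± 0.07 (limma, adjusted p = 0.000121), and Gipc1, an adaptor that binds the tail of Nrp1, by -1.23 ± 0.07 (limma, adjusted p = 0.000174).

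Of 17 co-receptors and other receptors tested, 3 were higher in dorsal cord and 6 lower. L1cam, a cell adhesion molecule that partners Nrp1 in the response to Sema3a, had means of 12.46 ± 0.13, 12.19 ± 0.06 and 10.85 ± 0.05 and a difference of 1.61 ± 0.07 (limma, adjusted p = 0.000109). Itga1, an integrin subunit, was lower in dorsal cord by -1.65 ± 0.13 (limma, adjusted p = 0.000459). The 11 kinases and actin effectors tested gave 4 higher and 4 lower. Cdk5r1, the activator of the kinase Cdk5, was higher in dorsal cord by 1.49 ± 0.06 (limma, adjusted p = 8.83e-05). Limk1, a kinase that acts on cofilin, was highest in the intermediate region, with means of 10.06 ± 0.09, 11.29 ± 0.03 and 10.90 ± 0.01, and was higher there than in dorsal cord by 1.23 ± 0.05 (limma, adjusted p = 0.000412) and than in ventral cord by 0.39 ± 0.05 (limma, adjusted p = 0.00308). Of the other ligands of neuropilins, which are vascular endothelial growth factors and a relative, 4 of 5 were lower in dorsal than in ventral cord and 3 were higher in intermediate than in dorsal cord.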

How the data were processed

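Array signals were measured in 9 samples, from the dorsal, intermediate and ventral spinal cord of each of 3 mice. Per the labels' protocols, total RNA was made into biotin-labelled cRNA with an Affymetrix kit. The values the authors deposited were read as log2 because they run from 2.15 to 16.3; summarisation, normalisation and array software are not given in the sources used here.

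Of 45037 probe sets, 34945 carried 1 gene symbol in the platform annotation. The brightest per gene was kept, and genes whose mean did not reach the 30th percentile of all probe sets were left out, which removed 4234. limma 3.58.1 in R 4.3.3 was fitted with region and animal as terms (4 residual degrees of freedom, prior degrees of freedom 0.749), moderated with eBayes, adjusted by Benjamini-Hochberg and tested on simulated data first. The number of arrays limits the precision. The titles name the animal, which pairs the regions; deviations of arrays from the same animal correlated at -0.07 to 0.25 (mean 0.08, 9 pairs) and those of different animals at -0.18 to 0.16.

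Every member is named, and array values are given where the F test passed with region means at least 1 apart, and for Plxna1 and Sema3c, which were added after their values were seen. Of the partner genes with means at least 1 apart, the 10 with the largest spread are named. Members and lists were chosen with earlier results of these data known. Figures were drawn with matplotlib 3.10.9.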

Additional observations from a re-analysis of the deposited data

How the results depend on the processing

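Of the 55 calls among 90 member comparisons, 28 kept their direction and call under each of the 22 alternatives that tested them. With each animal left out, 30 did so. The alternative limited to genes with 9 distinct values above the floor tested 46 of the 55. Leaving out single arrays, an alternative chosen after seeing the data, lost 3 to 10 of the 55, and each of these was also lost without an animal. Without the replicate block for the animal, dorsal minus ventral gave 10 members higher and 13 lower, the F test called 27, and 1 call was lost (Sema4a, adjusted p = 0.0501). The animal as a random block and quantile normalisation lost none. The intermediate to ventral difference of Nrp1 turned from -0.37 to 0.21 with the most variable probe set; the cause was not tested.

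Fitted on the arrays of the compared regions only, which leaves fewer samples, intermediate minus dorsal gave 4 members higher and 2 lower, 4 partner genes lower, and 1103 genes higher and 1002 lower over all genes. With no filter, 3 members were lower. With arrays centred on their medians, 10 members were higher and 5 lower, 20 partner genes were higher, and the split of all genes moved from 2219 higher and 1983 lower (52.8% higher) to 3222 and 1540 (67.7%), for a shift of the median by 0.07.

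With an animal or array left out, intermediate minus dorsal gave 2 to 8 members higher, 2 to 5 lower, 6 to 13 partner genes higher, 4 to 9 lower, and 765 to 2057 genes higher and 699 to 1719 lower. Intermediate minus ventral gave 9 to 17 partner genes higher, and 2016 to 3261 genes higher and 2184 to 3397 lower. Intermediate minus the mean of the others gave 2 to 8 members higher, 2 to 10 lower, and 715 to 2634 genes higher and 762 to 2422 lower. Dorsal minus ventral gave 9 to 15 partner genes higher. The F test called 17 to 25 members and 5046 to 7633 genes. A signal at the floor gives only a bound, which limits Sema6c and Plxna4os1, and Sema3f lay just above it; tied values on several arrays left 21 members with 9 distinct values, of which 9 were higher and 11 lower in dorsal cord, beside 79.2% of such genes called either way.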
